A study of Homo sapiens with 21 samples.

Results

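The genes described here are 9 CXC chemokines that are counted among the secreted factors of senescent fibroblasts: CXCL1, CXCL2, CXCL3, CXCL5, CXCL6, CXCL8, CXCL12, CXCL14 and CXCL16. They were taken by gene symbol, and all 9 were found among the 16383 genes of the expression table. The RNA came from IMR90, a long-established human fibroblast line from lung, and 7 groups had 3 libraries each. The first group was proliferating, labelled WT and untreated. The remaining 6 groups were irradiated, and on days 4 and 7 after that were given 5 nM siRNA with the lipid reagent DharmaFECT; harvest was on day 10. NT3 and NT4 got non-targeting siRNA and carry the WT label, while in the knockdown groups the siRNA was against CCND1, CDK4 or CDK6, and in dual knockdown against both kinases. CCND1 encodes cyclin D1, the partner that activates the cell cycle kinases CDK4 and CDK6. Irradiation and transfection cannot be told apart in any comparison with the proliferating group, since those cells had neither. The radiation dose is not in the labels, and each target is named with 1 siRNA label and no sequence, so a reagent and its target cannot be told apart either. Nothing in the labels says that the 3 libraries of a group came from separate cultures, so p-values measure the spread between these libraries, which may be technical.

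CXC chemokines are small secreted proteins, named for the spacing of a cysteine pair near their start, that attract cells through G protein-coupled receptors. CXCL1, CXCL2, CXCL3, CXCL5, CXCL6 and CXCL8 carry a glutamate-leucine-arginine (ELR) motif before those cysteines, bind CXCR2 (CXCL6 and CXCL8 also CXCR1), and draw in neutrophils. CXCL12, CXCL14 and CXCL16 lack that motif. CXCL12 keeps CXCR4-bearing cells in place in tissues such as bone marrow, CXCL14 is made mainly by epithelia and fibroblasts at rest, and CXCL16 is made as a membrane protein that binds CXCR6 and can be shed. In senescent fibroblasts the ELR chemokines are classic products of interleukin 1 and NF-kB signalling.

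Between 12892442 and 21822152 reads per library fell in the genes of the table. A value below is a normalised read count, that is, the reads of a gene in a library divided by that library's size factor. The siRNAs lowered their targets in every library that received them. CCND1 was 14.4% of the NT3 mean and 10.0% of the NT4 mean in CCND1 knockdown. CDK4 was 8.87% and 8.47% in CDK4 knockdown, and CDK6 was 15.3% and 17.8% in CDK6 knockdown. In dual knockdown CDK4 was 9.63% and 9.201% and CDK6 was 19.1% and 22.3% of the NT3 and NT4 means. Untargeted CDK6 was 117.6% and 137.3% of those means in CDK4 knockdown, and untargeted CDK4 was 77.9% and 74.4% in CDK6 knockdown. CCND1 was 148.2% and 102.7% in CDK4 knockdown, 172.5% and 119.5% in CDK6 knockdown, and 172.4% and 119.5% in dual knockdown. All 10 fibroblast markers had a mean of at least 10 in every group. The 8 leukocyte markers summed to 9.61 to 15.1 in proliferating libraries, 35.5 to 68.0 in NT3, 53.9 to 83.5 in NT4, 16.0 to 30.8 in CCND1 knockdown, 35.5 to 47.4 in CDK4 knockdown, 27.8 to 40.7 in CDK6 knockdown and 21.02 to 24.02 in dual knockdown. PTPRC, the pan-leukocyte marker CD45, was at 0 in all proliferating libraries and reached 8.90 at most elsewhere, and TYROBP was at 0 in every group but NT4. CD14, in contrast, had a mean of at least 10 in every irradiated group, and CSF1R in NT3, NT4, CDK4 knockdown and CDK6 knockdown. The 6 endothelial markers summed to 1764 to 4509, of which TEK alone gave 1756 to 4484, while CDH5 reached 3.28 at most. VWF had a mean of at least 10 in every irradiated group, KDR in NT3, NT4 and CDK4 knockdown, and PECAM1 in NT3. The 6 epithelial markers summed to 158.6 to 596.4, mostly KRT19, with KRT5 at 1.21 or less. EPCAM, like KRT19, had a mean of at least 10 in every group. The part of these cell types in the chemokine values was not tested, and more cells making a chemokine cannot be told apart from more RNA per cell.

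The 6 ELR genes, which lie near each other on chromosome 4, shared a stretch of upstream sequence. Of the 9 genes, 8 had an entry among RefSeq promoters of GRCh38.p14, each running from 250 bases before to 50 bases after an annotated start. The letters GGANTTTCC, a core of sites known to bind NF-kB, were searched on both strands. They occurred once in each of the 6 ELR promoters and in neither CXCL12 nor CXCL14, and in 1.65% of all 34943 promoters. Other forms of NF-kB sites were not searched, so this does not show that CXCL12 or CXCL14 lacks such a site. The match read GGAATTTCC, on the gene's strand, in all 6. It began 91 bases before the start in CXCL8, 90 in CXCL5, 89 in CXCL6, 78 in CXCL1 and CXCL3, and 77 in CXCL2. The 140 bases before each RefSeq start are printed 5′ to 3′ on the gene's strand, with the match in capitals. Whether the match has a part in the mRNA levels was not tested, and CXCL16 had no entry. CXCL12, which lacks the match, is given for contrast.
CXCL8: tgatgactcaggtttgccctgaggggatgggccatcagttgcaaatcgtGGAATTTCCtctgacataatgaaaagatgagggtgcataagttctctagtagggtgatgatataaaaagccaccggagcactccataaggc
CXCL1: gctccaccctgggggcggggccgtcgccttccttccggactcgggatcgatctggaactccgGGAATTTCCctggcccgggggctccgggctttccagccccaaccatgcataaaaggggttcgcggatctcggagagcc
CXCL2: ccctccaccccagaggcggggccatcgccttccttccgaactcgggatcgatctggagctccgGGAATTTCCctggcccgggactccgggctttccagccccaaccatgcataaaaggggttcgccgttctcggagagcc
CXCL3: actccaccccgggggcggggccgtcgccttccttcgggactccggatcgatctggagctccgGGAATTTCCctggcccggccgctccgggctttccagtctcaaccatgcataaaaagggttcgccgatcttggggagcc
CXCL5: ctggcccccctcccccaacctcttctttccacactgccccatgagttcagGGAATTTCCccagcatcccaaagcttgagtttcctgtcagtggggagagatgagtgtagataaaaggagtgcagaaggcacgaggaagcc
CXCL6: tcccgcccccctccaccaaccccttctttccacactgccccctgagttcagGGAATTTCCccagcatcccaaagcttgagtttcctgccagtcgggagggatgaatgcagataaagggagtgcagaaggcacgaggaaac
CXCL12: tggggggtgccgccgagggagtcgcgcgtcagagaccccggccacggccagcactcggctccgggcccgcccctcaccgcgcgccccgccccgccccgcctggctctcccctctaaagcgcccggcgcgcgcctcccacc
These windows lie at chr4:73740429-73740568 (CXCL8, plus strand), chr4:73869253-73869392 (CXCL1, plus), chr4:74099196-74099335 (CXCL2, minus), chr4:74038690-74038829 (CXCL3, minus), chr4:73998678-73998817 (CXCL5, minus), chr4:73836538-73836677 (CXCL6, plus) and chr10:44385098-44385237 (CXCL12, minus). For CXCL2, CXCL3, CXCL6, CXCL8 and CXCL12 the RefSeq start lies downstream of the outermost GENCODE start, so these windows overlap the gene as GENCODE draws it, and distances count from the RefSeq start. Over the 140 bases CXCL1 was 91.5% identical to CXCL2 and 90.7% to CXCL3, and CXCL5 was 90.1% identical to CXCL6, whereas CXCL8 was 47.8% to 52.3% identical to the other 5. The AP-1 letters TGANTCA, held by 7.72% of promoters, occurred in CXCL8 and CXCL14. The TATA letters TATAAA, held by 11.6%, occurred in CXCL8. None of the AP-1 or TATA matches overlaps GGANTTTCC. The letters TTGCNNNAA, searched for C/EBP and held by 9.21%, occurred in none of the 8. Other spacings and other forms of C/EBP sites were not searched, so this does not show that a promoter lacks such a site. A match is a run of letters and no measure of binding.

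The ELR ligands rose in irradiated control cells from low or nearly absent levels. CXCL8, the interleukin 8 gene (chr4:73740519-73743716, plus strand), was the ELR ligand with the highest level per kilobase of exon in every group. Its values were 44.5, 40.4 and 48.7 in proliferating libraries. They were 6662, 5131 and 5495 in NT3, and 1640, 1601 and 2583 in NT4. Every irradiated control library thus lay above every proliferating library, and every NT3 library above every NT4 library. The share of all tested genes whose libraries are separated in this way is not given, here or below. The log2 fold change over proliferating cells was 6.98 ± 0.30 (SE, 3 against 3 libraries) in NT3, with a limma adjusted p of 1.79e-14. In NT4 it was 5.38 ± 0.30 with a limma adjusted p of 1.47e-12. Here and below, the SE of a fold change comes from a variance shared by all 7 groups, so it is not particular to the groups compared.

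CXCL1 (GRO-alpha, chr4:73869393-73871308, plus strand) was almost silent in the proliferating libraries, with 3, 4 and 0 reads. It reached 1763, 1081 and 1007 in NT3 and 165, 185 and 333 in NT4. Every NT3 library lay above every NT4 library here too. Pooling the reads of each group, its level was 562 times the proliferating level in NT3 (95% counting interval 272.5 to 1399) and 105.3 times in NT4 (50.8 to 263). These intervals cover counting error only. CXCL5, which is also made by epithelia, had values of 6.11, 7.45 and 8.86 in proliferating libraries, 516, 495 and 560 in NT3, and 117.3, 101.3 and 172.3 in NT4. Its ratio to proliferating cells was 70.8 (47.4 to 110.9) in NT3 and 17.6 (11.7 to 27.8) in NT4.

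The close relatives CXCL2 and CXCL3, and the CXCR1 ligand CXCL6, rested on 1, 3 and 3 reads in the 3 proliferating libraries together. The exons of CXCL6 share 94 bases with PPBPP1 on the same strand, and those of CXCL5 share 422 bases with an unnamed gene on the opposite strand. CXCL2 was 226, 205 and 148 in NT3 and 31.7, 52.3 and 63.3 in NT4. CXCL3 was 291, 186 and 169 in NT3 and 56.8, 43.4 and 78.8 in NT4. CXCL6 was 66.8, 71.6 and 61.0 in NT3 and 17.3, 8.90 and 18.5 in NT4. Over proliferating cells, NT3 was higher by 594 times for CXCL2 (106.2 to 23500), 220 times for CXCL3 (75.0 to 1070) and 70.4 times for CXCL6 (23.75 to 344). For NT4 the ratios were 157.1 for CXCL2 (27.76 to 6248), 64.65 for CXCL3 (21.77 to 316.5) and 16.25 for CXCL6 (5.218 to 81.76). With so few reads in proliferating cells, the size of these differences is known only within a wide interval, while the levels in NT3 and NT4 rest on more reads.

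Of all 9 chemokines, 8 were called higher and CXCL12 was called lower in NT3 than in proliferating cells, where 31.8% of the 11579 tested genes were called higher and 35.2% lower. A gene is called where its adjusted p from limma is under 0.05. In NT4 the same comparison called 8 higher and none lower, against 30.1% of genes higher and 33.2% lower, with CXCL12 uncalled. Centring each library on its median gene moves all fold changes over proliferating cells up by 0.11 to 0.13. The median log2 fold change of the 6 ELR ligands was 6.95 in NT3 and 5.19 in NT4, beside -0.03 and -0.02 for all tested genes. Both comparisons share the proliferating libraries.

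**Figure D1:**
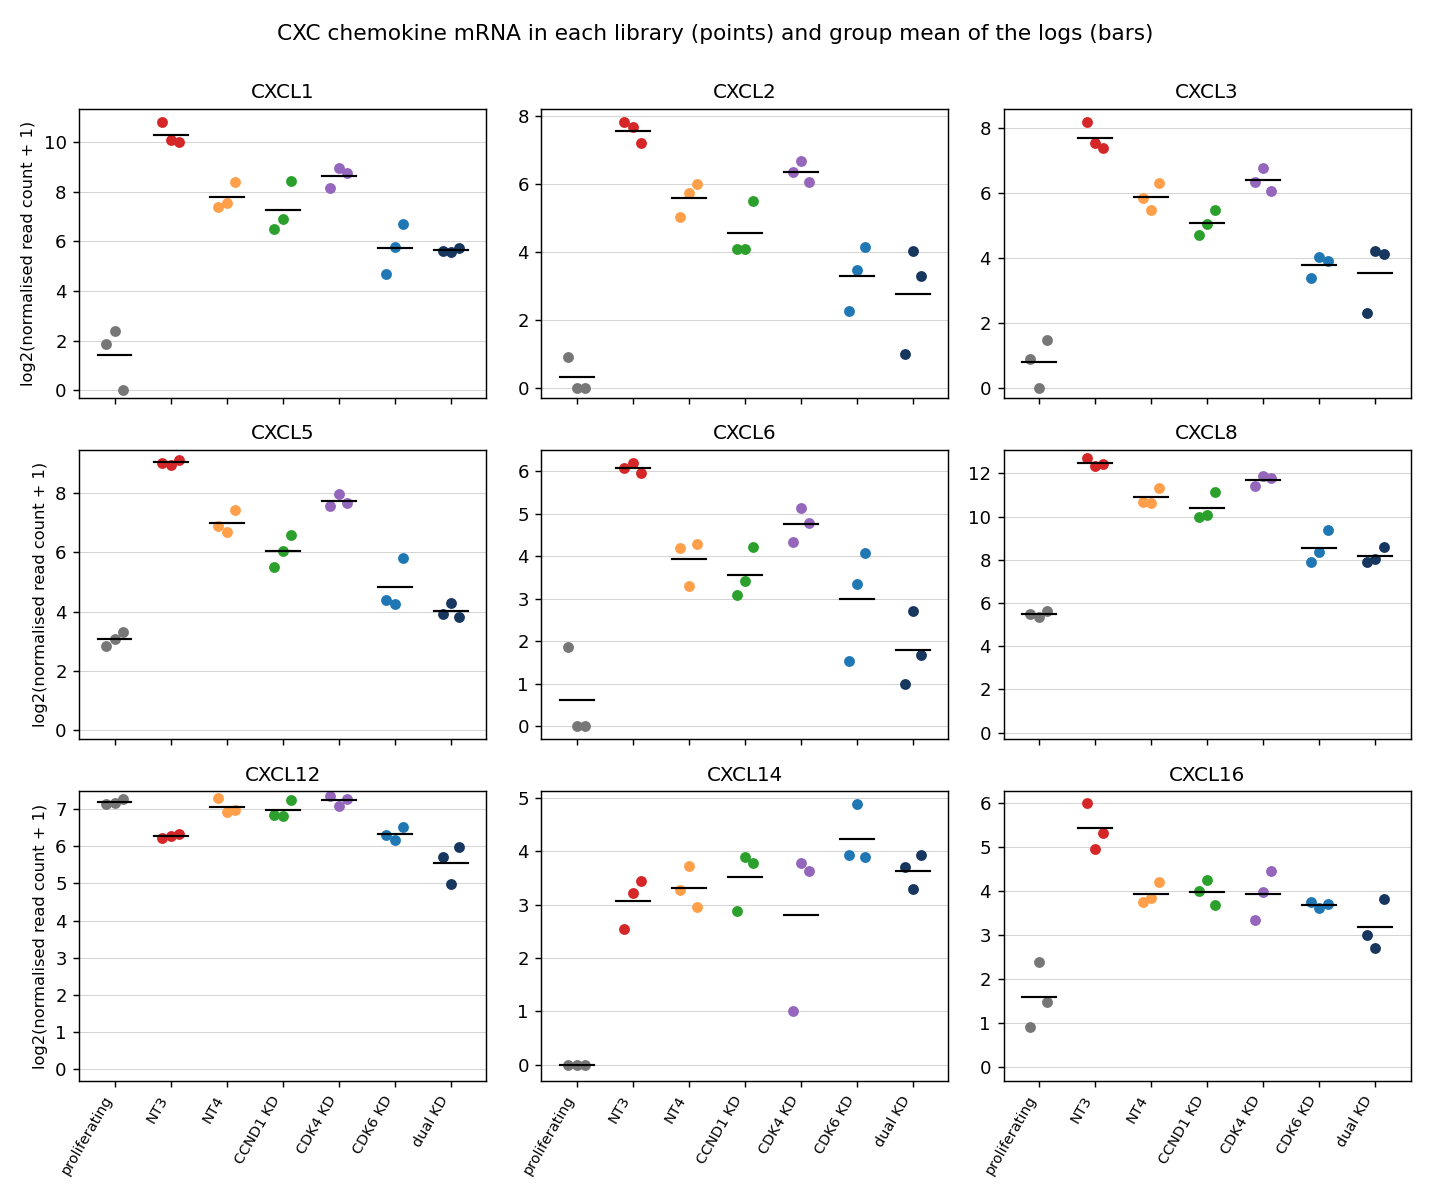
Each panel shows 1 chemokine. The vertical axis is log2 of the normalised read count plus 1, each point is a library, and each bar is the mean of the logs of the 3 libraries in a group (KD, knockdown). The 6 ELR ligands fall in the same order of groups, from NT3 at the top to proliferating cells at the bottom, whereas CXCL12 is lowest in dual knockdown, CXCL14 is at 0 in proliferating cells, and CXCL16 is high in NT3.

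The controls themselves differed. NT4 was lower than NT3 for all 6 ELR ligands, with log2 fold changes from -1.60 ± 0.30 for CXCL8 to -2.51 ± 0.53 for CXCL1 and limma adjusted p-values of 0.000469 and 0.00121. The NT4 mean of CXCL8 was 1941 ± 556 (SD, n = 3) and its NT3 mean 5763 ± 800 (SD, n = 3). The 3 libraries of each control did not overlap for any ELR ligand. As above, the share of all tested genes whose libraries are separated in this way is not given. The calls for CXCL2, CXCL6 and CXCL16 were each lost without 1 library: the first of NT4 (-1.70), the second of NT4 (-1.83) and the first of NT3 (-1.20). CXCL16 was also lower and CXCL12 higher in NT4, which left CXCL14 as the uncalled gene. That made 7 of 9 lower and 1 higher, against 13.1% of tested genes called lower and 14.7% called higher. Each knockdown is therefore given against each control separately below, and comparisons against the same control share its libraries.

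CDK6 knockdown and dual knockdown had the lowest ELR ligand levels of the irradiated groups. CXCL8 was 238, 323 and 667 in CDK6 knockdown and 234, 263 and 390 in dual knockdown. These 6 libraries all lay below the lowest NT4 library and above the highest proliferating library. Against NT4, the log2 fold change of CXCL8 was -2.35 ± 0.30 in CDK6 knockdown (limma adjusted p = 4.37e-06) and -2.71 ± 0.30 in dual knockdown (4.03e-07 in the same limma fit). Against NT3 the changes were -3.94 ± 0.30 and -4.31 ± 0.30, and the group means were 7.1% and 5.13% of the NT3 mean. The column numbers of the irradiated libraries fall into 3 runs with 1 library of each group. Within these runs CXCL8 differed from NT4 by -2.78, -2.31 and -1.95 in CDK6 knockdown and by -2.80, -2.60 and -2.72 in dual knockdown.

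The other ELR ligands ran the same way. CXCL1 was 24.9, 52.9 and 101.6 in CDK6 knockdown and 48.1, 46.4 and 51.3 in dual knockdown, with means of 26.3% and 21.3% of the NT4 mean. With a pseudocount of 0.1 in place of 1, CXCL1 did not pass against NT4 in either group (-2.08 and -2.16, limma adjusted p = 0.0759 and 0.0572). CXCL5 was 20.1, 18.3 and 55.0 in CDK6 knockdown and 14.0, 18.8 and 13.1 in dual knockdown, with means of 23.9% and 11.7% of the NT4 mean. Of the ELR ligands in CDK6 knockdown, CXCL6 alone did not pass against NT4. Its libraries were 1.92, 9.16 and 15.8, which overlap the NT4 range, and its log2 fold change was -0.94 with a 95% interval from -2.17 to 0.29. In dual knockdown CXCL6 was 1.001, 5.52 and 2.18, all below the lowest NT4 library. Depth is short here, with 8 reads of CXCL6 in the 3 dual knockdown libraries together.

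CXCL2 was 3.83, 10.2 and 16.8 in CDK6 knockdown and 1.001, 15.5 and 8.74 in dual knockdown. CXCL3 was 9.58, 15.3 and 14.0, and 4.00, 17.7 and 16.4. For both genes the first dual knockdown library was the lowest of the irradiated libraries.

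Among the 9 genes, CDK6 knockdown called 6 lower and none higher against NT4 (15.4% and 15.2% of tested genes) and 7 lower and none higher against NT3 (23.4% and 23%). Dual knockdown called 7 lower and none higher against NT4 (18.3% and 18.4%) and 8 lower and none higher against NT3 (21.9% and 22.7%). CXCL12 is among the genes called lower against NT4 in both. Even in dual knockdown most ELR ligands stayed above proliferating cells. There, 7 of 9 genes were higher and CXCL12 was lower than in proliferating cells (32.7% of tested genes higher, 32.9% lower). CXCL8 had a log2 fold change of 2.67 ± 0.30 (limma adjusted p = 9.47e-08) and CXCL5 one of 0.94 ± 0.31 (limma adjusted p = 0.012). CXCL5 did not pass with edgeR (adjusted p = 0.114), nor without the first proliferating library (0.82) or the second dual knockdown library (0.79). CXCL6, with 1.17 ± 0.59, was the uncalled gene, and passed without the first proliferating library (1.79) or the first dual knockdown library (1.57).

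**Figure D2:**
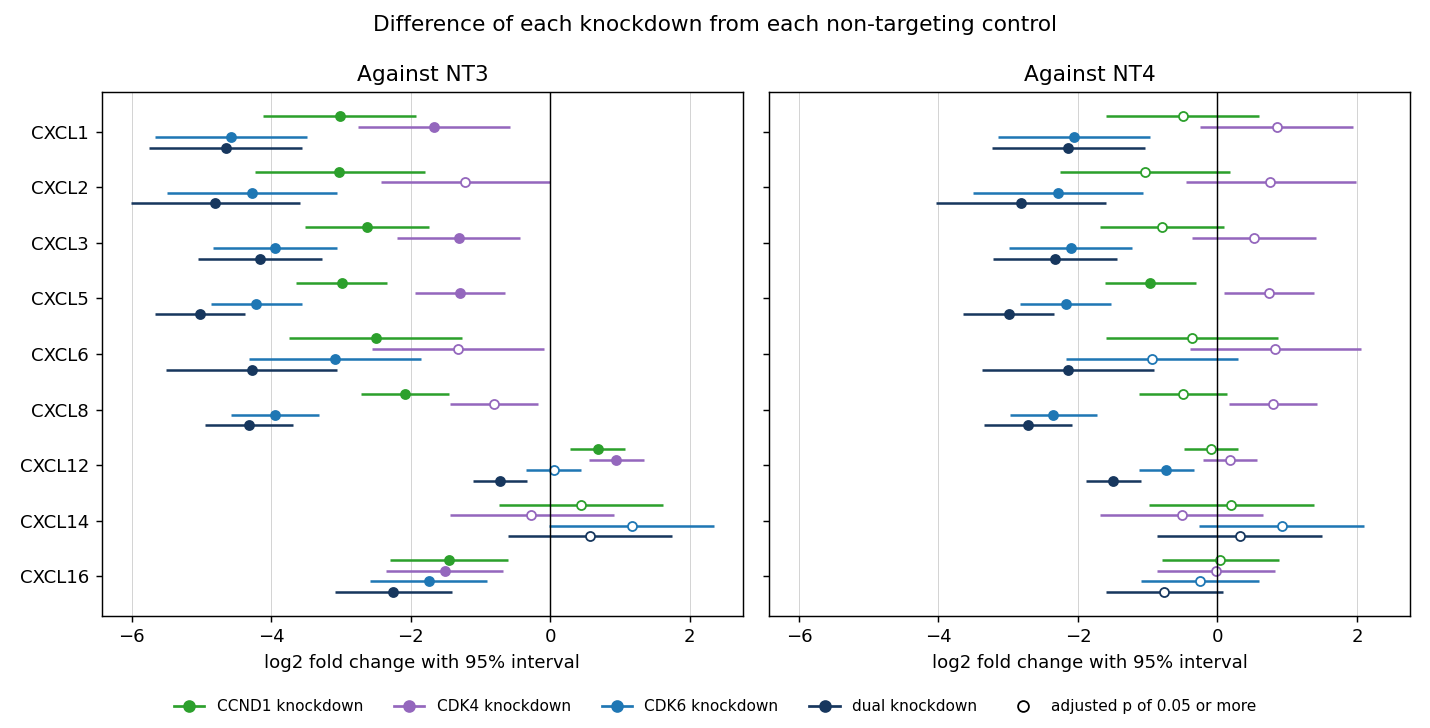
Points are log2 fold changes of each knockdown against NT3 (left) and NT4 (right), lines are 95% intervals of the limma fit, and open points have an adjusted p of 0.05 or more. The 4 knockdowns lie below 0 for the 6 ELR ligands against NT3, whereas against NT4 CDK4 knockdown lies above 0 for those 6 and its points are open for all 9 genes.

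CCND1 knockdown depended on the control. CXCL8 was 1003, 1085 and 2268, all below the NT3 libraries and partly within the NT4 range. CXCL1 was 88.3, 119.5 and 340.6, CXCL2 was 15.9, 16.0 and 44.2, CXCL3 was 25.5, 32.0 and 44.2, and CXCL6 was 7.44, 9.60 and 17.7. The third library was the highest of the group for each of these genes, though for CXCL1 it lay above all NT4 libraries and for CXCL2, CXCL3 and CXCL6 it did not. The 6 ELR ligands were lower than in NT3, with log2 fold changes from -2.08 ± 0.30 for CXCL8 to -3.02 ± 0.58 for CXCL2. With CXCL16 that made 7 of 9 called lower, and CXCL12 was called higher (18.3% and 19.9% of tested genes). Against NT4, CXCL5 was the 1 gene called lower and none was called higher (8.85% and 10.4%). CXCL5 was 44.7, 65.1 and 94.2 in CCND1 knockdown, each below the lowest NT4 value of 101.3, with a log2 fold change of -0.96 ± 0.31 (limma adjusted p = 0.0356). That call was lost in 4 of the 6 fits that left out 1 library, with an adjusted p of up to 0.187. For CXCL8 the interval of the difference from NT4 ran from -1.12 to 0.14, and for CXCL1 from -1.59 to 0.60.

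CDK4 knockdown lay between the controls. CXCL8 was 2721, 3744 and 3506, which is above every NT4 library and below every NT3 library. Its log2 fold change was -0.80 ± 0.30 against NT3 (limma adjusted p = 0.0579) and 0.80 ± 0.30 against NT4 (limma adjusted p = 0.097). CXCL2 was 80.2, 101.1 and 65.3, CXCL5 was 190, 252 and 202, and CXCL6 was 19.3, 34.4 and 26.5. Like CXCL8, these 3 lay between the controls with no overlap. CXCL1, at 285, 491 and 426, and CXCL3, at 81.2, 107.96 and 66.3, lay below NT3 and overlapped NT4. Against NT3, 4 of 9 genes were called lower (CXCL1, CXCL3, CXCL5 and CXCL16) and CXCL12 higher, where 12.2% and 13.4% of tested genes were. On the recovered reads edgeR called 8 of 9, adding CXCL2, CXCL6 and CXCL8, the last with an adjusted p of 0.0411. CXCL1, CXCL3 and CXCL16 lost that call without the first NT3 library, with log2 fold changes of -1.41, -1.08 and -1.22. They lost it likewise without the first CDK4 knockdown library, with -1.44, -1.29 and -1.22. Leaving out the third CDK4 knockdown library ended it for CXCL1 and CXCL3, with -1.73 and -1.15.

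Against NT4, limma called 0 of the 9 genes in CDK4 knockdown, where 5.66% of tested genes were called higher and 5.93% lower. At an unadjusted p under 0.05 there were 2, and edgeR and DESeq2 both called 0. Fitted with these groups alone, 4 ELR ligands passed as higher than NT4: CXCL1, CXCL2, CXCL5 and CXCL8, the last with 0.80 and an adjusted p of 0.00171. Its 95% interval in the fit of all groups, 0.17 to 1.43, leaves out values below 0.

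Set side by side, the knockdowns of the kinases differed. CDK6 knockdown was lower than CDK4 knockdown for 7 of 9 genes and higher for none (17.3% and 17.5% of tested genes). These were the 6 ELR ligands and CXCL12. The log2 fold change was -3.15 ± 0.30 for CXCL8 (limma adjusted p = 5.71e-08), -2.90 ± 0.53 for CXCL1 (0.000174, limma) and -2.91 ± 0.31 for CXCL5 (2.57e-07, limma). Every CDK6 knockdown library was below every CDK4 knockdown library for these 7 genes. CXCL6, at -1.77 ± 0.59, lost its call without the second or the third CDK4 knockdown library or the first CDK6 knockdown library (-1.57, -1.76 and -1.05). CCND1 knockdown was higher than CDK6 knockdown for 4 of 9 genes and lower for none (6.78% and 5.43%): CXCL3, CXCL5, CXCL8 and CXCL12. CXCL8 was 1.86 ± 0.30 higher on the log2 scale (limma adjusted p = 0.000234), and its call held in each of the 6 fits without 1 library of these groups. CXCL3 lost its call in all 6, and CXCL5 (0.94 to 1) and CXCL12 (0.49 to 0.62) in 3 each: without the third CCND1 knockdown library and without the first or the second CDK6 knockdown library. CXCL1, at 1.56 ± 0.53 with a limma adjusted p of 0.057, passed with edgeR (0.025) and with DESeq2 (0.0284).

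Adding CDK4 siRNA to CDK6 siRNA gave no ELR ligand a difference past the threshold. Dual knockdown differed from CDK6 knockdown for CXCL12 alone, which was lower (6.94% of tested genes were lower and 6.05% higher). The difference was -0.36 for CXCL8, with an interval from -0.99 to 0.27, and -0.08 for CXCL1, from -1.18 to 1.02. For CXCL5 it was -0.82, from -1.47 to -0.16, with a limma adjusted p of 0.0924, which passed without the second CDK6 knockdown library (-1.09, limma adjusted p = 0.0418). For CXCL6 it was -1.20, from -2.43 to 0.04, and passed without the first CDK6 knockdown library (-1.92, limma adjusted p = 0.0412).

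The order of the group means was the same for all 6 ELR ligands: NT3, CDK4 knockdown, NT4, CCND1 knockdown, CDK6 knockdown, dual knockdown and proliferating cells. Not all neighbours in it were separated. CDK4 knockdown and NT4, NT4 and CCND1 knockdown (CXCL5 apart), and CDK6 and dual knockdown did not differ past the threshold. NT3 and CDK4 knockdown did not for CXCL2, CXCL6 and CXCL8, nor CCND1 and CDK6 knockdown for CXCL1, CXCL2 and CXCL6, nor dual knockdown and proliferating cells for CXCL6. Summed per kilobase of exon, the 6 ligands came to 23.0 ± 1.09 (SD, n = 3) in proliferating cells, 3650 ± 654 in NT3, 1040 ± 314 in NT4, 762 ± 402 in CCND1 knockdown, 1780 ± 308 in CDK4 knockdown, 232 ± 133 in CDK6 knockdown and 169 ± 37.1 in dual knockdown. CXCL8 held 58.4% to 64.3% of that sum in the NT3 libraries and 71.1% to 73.7% in the NT4 libraries. CXCL1 held 22.4% to 29.4% in NT3, 14.1% to 17.4% in NT4, 14.5% to 20.5% in CDK6 knockdown and 18.1% to 26.2% in dual knockdown, so its share did not follow the size of the sum. Over the 18 irradiated libraries, Pearson's r of the log2 values with CXCL8 was 0.971 for CXCL1, 0.945 for CXCL2, 0.954 for CXCL3, 0.977 for CXCL5 and 0.916 for CXCL6. These libraries share groups and depth, and the coding sequences of CXCL1, CXCL2 and CXCL3 are 90.9% to 94.5% identical. At most 5.63% of the windows of 50 bases in a transcript of one of these 3 recur in another of them. This counts exact matches at 1 window length, so it does not limit how many reads fit more than 1 of them. How the counting treated such reads is not stated.

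**Figure D3:**
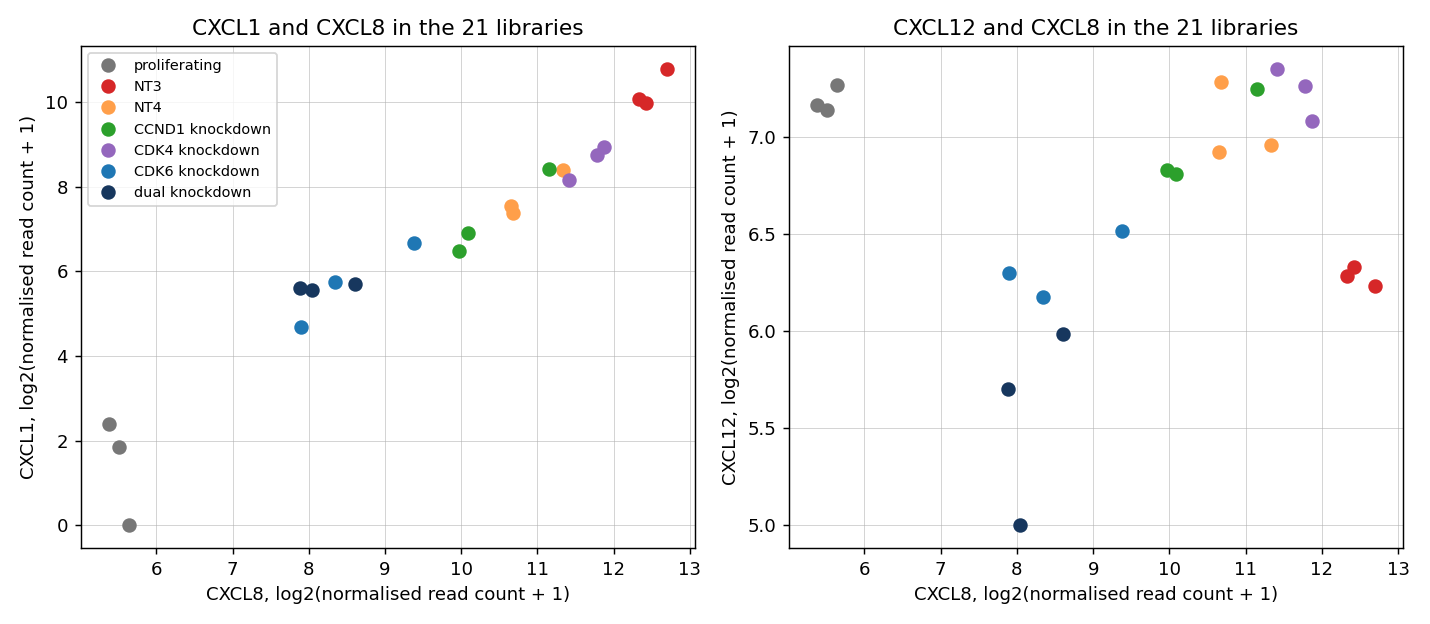
Both axes are log2 of the normalised read count plus 1, and each point is 1 of the 21 libraries, coloured by group. CXCL1 rises with CXCL8 from proliferating cells through dual and CDK6 knockdown to NT3, whereas the NT3 libraries have the highest CXCL8 and a CXCL12 level well below that of NT4 and CDK4 knockdown.

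CXCL12 (chr10:44370165-44386493, minus strand), the ligand of CXCR4 and of the scavenger ACKR3, took another course. It was already expressed in proliferating cells, at 140, 143 and 153, where per kilobase of exon it was the highest of the 9 genes. NT3 libraries had 74.0, 76.8 and 79.5, all below the proliferating ones, with a log2 fold change of -0.91 ± 0.19 (limma adjusted p = 0.000222). NT4 libraries had 155, 120 and 124, which overlapped the proliferating range. The difference there was -0.14, with an interval from -0.53 to 0.26. Whether CXCL12 was lower in irradiated control cells than in proliferating cells thus depended on which control was read. NT4 was higher than NT3 by 0.77 ± 0.19 (limma adjusted p = 0.00402).

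In the knockdowns CXCL12 was 112.7, 110.96 and 151.1 for CCND1, 162, 134 and 152 for CDK4, and 77.6, 71.2 and 90.4 for CDK6. In dual knockdown it was 51.1, 30.9 and 62.2, below all other 18 libraries. Dual knockdown was lower than NT3 by -0.72 ± 0.19 (limma adjusted p = 0.00367), than NT4 by -1.50 ± 0.19 (2.07e-06, limma) and than CDK6 knockdown by -0.77 ± 0.19 (0.0083, limma). The first of these was lost when those groups were fitted alone (limma adjusted p = 0.0697) and after quantile normalisation (-0.45). The last was lost without the second dual knockdown library, at -0.49 and a limma adjusted p of 0.0643. CDK6 knockdown was lower than NT4 by -0.73 ± 0.19 (limma adjusted p = 0.00525) but 0.05 from NT3, with an interval from -0.34 to 0.44. CDK4 knockdown and CCND1 knockdown were above NT3, by 0.95 ± 0.19 and 0.68 ± 0.19, and did not differ from NT4 past the threshold (0.18 and -0.09). The ELR sum per kilobase was 0.932 to 1.05 times the CXCL12 level in proliferating libraries, 255 to 366 times in NT3, 34.1 to 69.7 times in NT4, 10.0 to 25.9 times in CDK6 knockdown and 16.2 to 32.8 times in dual knockdown.

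CXCL16 (chr17:4733533-4739928, minus strand) was 0.873, 4.26 and 1.77 in proliferating libraries and 63.1, 30.1 and 39.0 in NT3. Outside NT3 no irradiated library passed 20.8. The groups other than NT3 had means of 14.5 in NT4, 14.9 in CCND1 knockdown, 14.9 in CDK4 knockdown, 11.9 in CDK6 knockdown and 8.54 in dual knockdown. CXCL16 was accordingly lower than NT3 in every other irradiated group, by -1.45 ± 0.40 to -2.25 ± 0.40 among the knockdowns and by -1.49 ± 0.40 in NT4. No knockdown differed from NT4 past the threshold. For dual knockdown the difference from NT4 was -0.76, with an interval from -1.60 to 0.08. Against proliferating cells it rose in NT3 (3.84 ± 0.40, limma adjusted p = 2.83e-08), in NT4 (2.35 ± 0.40, 3.17e-05 in limma) and in dual knockdown (1.58 ± 0.40, 0.00165 in limma). Its exons share 96 bases with ZMYND15 and 76 with MED11 on the opposite strand, and the counting is not stated to use strand.

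CXCL14 (chr5:135570679-135579279, minus strand) had no read in any proliferating library. Its exons share a short stretch with SLC25A48 on the opposite strand. NT3 had 4, 8 and 14 reads, NT4 had 9, 11 and 7, CCND1 knockdown had 6, 13 and 13, and dual knockdown had 12, 8 and 13. Set against a limit of 3 reads over the proliferating group, CXCL14 was at least 8.71-fold higher in NT3, at least 9.75-fold in NT4 and at least 12.5-fold in dual knockdown, leaving aside counting error in the irradiated groups. The highest group mean was that of CDK6 knockdown, with values of 14.4, 28.5 and 14.0 against 6.81 to 12.2 in NT4, 4.85 to 9.93 in NT3 and 8.83 to 14.2 in dual knockdown. The CDK6 knockdown libraries overlapped dual knockdown and neither control, but the differences did not pass. They were 1.17 against NT3, with an interval from -0.01 to 2.35 and a limma adjusted p of 0.0961 (0.049 with edgeR and 0.0481 with DESeq2), and 0.92 against NT4, from -0.26 to 2.10. Against CDK4 knockdown, whose libraries were 1.01, 12.8 and 11.4, the difference was 1.44 ± 0.57 with a limma adjusted p of 0.0541. Each irradiated group had 26 to 58 reads of CXCL14 in all.

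Receptors for these ligands were scarce in the same RNA. Of 8 CXC and atypical receptors, CXCR4 and ACKR3 passed the filter. CXCR1, CXCR2, CXCR3 and ACKR1 had group means of 3.46 or less, CXCR5 reached 4.99 in NT4, and CXCR6, the CXCL16 receptor, had means of 1.76 to 8.52. CXCR4 was at 0 in proliferating libraries, 14.6 ± 2.67 (SD, n = 3) in NT3, 5.79 ± 3.50 in NT4 and 1.68 ± 2.13 in CDK6 knockdown. It was lower in CDK6 knockdown than in NT3 (-2.85 ± 0.69, limma adjusted p = 0.00198), but not past the threshold against NT4 (-1.49 ± 0.69, 0.111 in limma). ACKR3, which takes up CXCL12, rose from 22.5 ± 5.73 to 67.9 ± 3.54 in NT3 and 58.1 ± 7.94 in NT4. Against NT3 and NT4 its limma adjusted p-values in the 4 knockdowns ran from 0.109 to 0.881, while CDK6 knockdown was above CDK4 knockdown by 0.62 ± 0.22 (limma adjusted p = 0.0299).

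Of 7 other ligands of the family, 6 were in the table, and CXCL10 and CXCL11 passed the filter. Both are interferon-inducible ligands of CXCR3. CXCL10 rose from 5.52 ± 1.10 to 1060 ± 371 in NT3 and 556.5 ± 104.9 in NT4, and was 192 ± 57.9 in CDK6 knockdown and 97.6 ± 17.8 in dual knockdown. CXCL11 was 141 ± 38.1 in NT3, 130 ± 15.7 in NT4, 45.0 ± 7.402 in CDK6 knockdown and 20.6 ± 0.496 in dual knockdown. Both were lower in dual than in CDK6 knockdown, by -0.94 ± 0.25 and -1.08 ± 0.28 (limma adjusted p = 0.014 and 0.0123). PPBP was at 0 in every library, and PF4, CXCL9 and CXCL13 had group means of 5.44 or less.

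The list of NF-kB and interleukin 1 inputs held 21 genes, all tested. IL1A and IL1B, which encode cytokines that bind the interleukin 1 receptor, had the same order of group means as the ELR ligands. Whether they have a part in the ELR ligand levels was not tested. IL1A was 2.77 ± 2.29 in proliferating cells, 243 ± 21.3 in NT3, 114.5 ± 35.1 in NT4, 18.4 ± 2.71 in CDK6 knockdown and 14.8 ± 7.05 in dual knockdown. IL1B was 13.8 ± 4.59, 651 ± 117, 237 ± 60.9, 37.7 ± 13.4 and 24.0 ± 4.74 in the same groups. RELA, 1 of the NF-kB subunits, was 1629 ± 54.5 in proliferating cells, 1895 ± 132 in NT3, 1830 ± 68.7 in NT4 and 1752 ± 26.5 in CDK6 knockdown. Its log2 fold change in CDK6 knockdown was -0.06 ± 0.06 from NT4 (limma adjusted p = 0.455). Over proliferating cells RELA was called higher in NT3 (0.22 ± 0.06) and NT4 (0.17 ± 0.06). The other subunit genes were called lower than NT4 in CDK6 knockdown: RELB (-0.99 ± 0.12), REL (-0.71 ± 0.26), NFKB1 (-0.49 ± 0.1) and NFKB2 (-0.3 ± 0.07). They were called lower than NT4 in dual knockdown as well. In NT3 against proliferating cells 12 of the 21 were higher and 3 lower (31.8% and 35.2% of all tested genes). Against NT4, CDK6 knockdown had 10 lower and none higher (15.4% and 15.2%), and dual knockdown 12 lower and 1 higher (18.3% and 18.4%). CCND1 knockdown had 3 lower and none higher (8.85% and 10.4%), and CDK4 knockdown 1 in each direction (5.93% and 5.66%). The list's median log2 fold change against NT4 was -0.30 in CDK6 knockdown and -0.26 in dual knockdown, beside -0.01 and 0 for all tested genes.

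The 7 regulators of mRNA decay were all tested. ZC3H12A, a nuclease that cleaves inflammatory mRNAs, rose by 2.72 ± 0.28 in NT3 over proliferating cells (limma adjusted p = 2.04e-08) and was lower than NT4 by -0.91 ± 0.28 in CDK6 knockdown and -1.06 ± 0.28 in dual knockdown. HNRNPD, whose AUF1 proteins bind AU-rich mRNAs, fell by 1.41 ± 0.08 in NT3. In NT3 against proliferating cells 2 of the 7 were higher and 4 lower, beside 31.8% and 35.2% of all tested genes. Against NT4, CDK6 knockdown had 4 lower, beside 15.4% of tested genes, and dual knockdown 2 lower, beside 18.3%, with none higher in either.

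Among 8 proteases that cut CXC chemokines, 7 were tested. DPP4, which trims and inactivates CXCL12, rose from 629 ± 22.4 in proliferating cells to 2248 ± 187 in NT3 and 2519 ± 217 in NT4, and was lower in CDK6 knockdown than in NT4 (-0.84 ± 0.09, limma adjusted p = 5.6e-07). In dual knockdown its difference from NT4 was -0.14 ± 0.09 (0.27, limma). MMP1, a collagenase, was lower than NT4 in CDK6 and dual knockdown, by -0.92 ± 0.09 and -1.62 ± 0.09, and higher in CCND1 knockdown, by 0.51 ± 0.09. ADAM10, the main sheddase of CXCL16 at rest, differed from NT4 by 0.25 ± 0.07 in dual knockdown. Of the 7, CDK6 knockdown had 4 lower and none higher than NT4, where 15.4% and 15.2% of all tested genes were. CDK4 knockdown had 0 called by limma in either direction (5.93% and 5.66% of tested genes), also at an unadjusted p under 0.05.

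**Figure D4:**
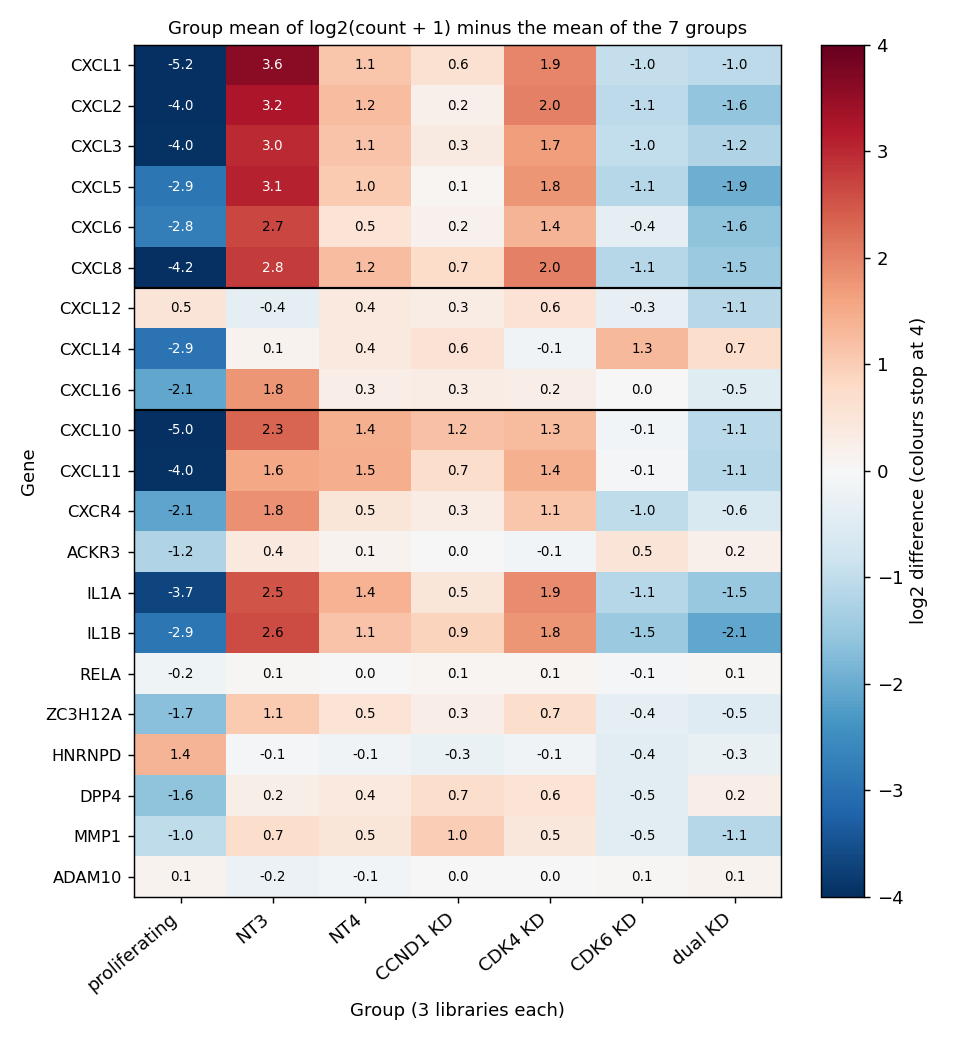
Rows are the 9 chemokines (split by a line into the 6 ELR ligands and CXCL12, CXCL14 and CXCL16) and other genes named in the text. Each cell is the group mean of log2 of the count plus 1, less the mean of the 7 groups, and colours stop at 4 on either side. IL1A and IL1B have the same order of groups as the ELR ligands, from 2.53 and 2.62 in NT3 to -1.52 and -2.09 in dual knockdown. RELA stays within -0.17 and 0.08, and the other NF-kB subunit genes are not drawn.

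The genes most like each of 4 members over the 18 irradiated libraries were ranked by Pearson's r of the log2 values. Nearest CXCL8 were CSF3 (0.983), IRAK2 (0.98), SOD2 (0.978), IL1B (0.978) and TNFAIP3 (0.976). Nearest CXCL12 were EMP2 (0.924), ERCC6L (0.906), PDE4C (0.893), DNAH7 (0.887) and HNRNPH1 (0.88). Nearest CXCL16 were TM4SF1 (0.904), ZNF747 (0.899), IQCB1 (0.885), SEPHS2 (0.88) and CHMP2B (0.877). Nearest CXCL14, which has few reads, were CCDC69 (0.813), PTPN3 (0.782), GPRASP1 (0.74), ERMAP (0.736) and LDB3 (0.731). CXCL12 itself had an r of 0.57 with CXCL8, CXCL16 one of 0.739 and CXCL14 one of -0.452.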

How the data were processed

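RNA of 21 libraries was analysed. The deposited values are a signal, called normalised counts in the file headers: the authors had divided whole reads by 1 size factor per library, since every value was a whole multiple of its library's step (within 0.02 reads). Per the submitters' processing notes, Trimmomatic 0.38.1, HISAT2 2.2.1, featureCounts 2.0.3, FastQC 0.74, MultiQC, DESeq2 2.11.40.8 and GRCh38 were used. Annotation and strand setting are not given in the sources used here. Testing was limited to the 11579 genes that reached 10 in 3 or more libraries, which kept all 9 chemokines. limma 3.58.1 (R 4.3.3, trended variance) was fitted to log2 of the value plus 1 with 7 group means, in 15 comparisons. Its p-values are two-sided, with Benjamini-Hochberg adjustment over the tested genes of each comparison. Fold changes on this scale understate changes of low genes. The fit was tested on simulated data, and edgeR 4.0.16 and DESeq2 1.42.0 were run on recovered reads as alternatives. Coordinates and exon lengths are from GENCODE 44 on GRCh38, and promoters from RefSeq. Column names give the group and a running number, by which libraries are called the first, the second and the third. The 9 genes and all lists were chosen with earlier results of these data known. Named were all 9, the 5 genes most like each of 4 of them, the family's receptors and ligands, and at most 3 genes of each other list, picked after their values were seen. The NF-kB list is an exception, with all its subunit genes named.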

Additional observations from a re-analysis of the deposited data

How the results depend on the processing

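Of the 135 fold changes of the 9 genes over 15 comparisons, 87 were called. None of these 87 changed direction under any alternative run, and 24 lost the call under at least 1. Of the uncalled ones, 22 passed under at least 1 alternative. The filter on a mean of 100 left 4 of the 9 genes in the fit. It called 4 in NT3 against proliferating cells, 3 in NT4 against proliferating cells, 4 in NT4 against NT3, 4, 3, 3 and 4 in CCND1, CDK4, CDK6 and dual knockdown against NT3, and 4 each in dual knockdown against NT4, CDK6 against CDK4 knockdown and dual knockdown against proliferating cells. For the other settings the cause was not tested. A pseudocount of 0.1 called 5 in NT4 against NT3 and 3 in CDK4 knockdown against NT3. With no filter, 0 were called in CCND1 knockdown against NT4 (limma, with 1 at an unadjusted p under 0.05 in the filtered fit, and 1 each by edgeR and DESeq2) and 2 in CCND1 against CDK6 knockdown. Fitted with the compared groups alone, CCND1 and CDK4 knockdown against NT4 gave 3 and 4. edgeR gave 8 in CDK4 knockdown against NT3, and quantile normalisation 5 in dual knockdown against proliferating cells.

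With the mean of NT3 and NT4 as the control, 6 genes were called in CCND1 knockdown and 1 in CDK4 knockdown. There CCND1 knockdown gave 0.29 for CXCL12 and -0.71 for CXCL16, CDK6 knockdown gave -0.34 for CXCL12, and CDK4 knockdown gave 0.00 for CXCL8, -0.41 for CXCL1, -0.23 for CXCL2, -0.40 for CXCL3, -0.28 for CXCL5 and -0.24 for CXCL6. Other uncalled changes of direction were small. CXCL14 in CDK4 knockdown against NT3 was 0.08 with edgeR and 0.09 with DESeq2. CXCL16 in CDK4 knockdown against NT4 was 0.00 with a pseudocount of 10, 0.06 after quantile normalisation, and 0.05 with edgeR and with DESeq2. After quantile normalisation CXCL16 in CDK6 knockdown against NT4 was 0.01, and CXCL1 in dual against CDK6 knockdown 0.11.

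Leaving out 1 library at a time, 0 to 1 genes were called in CCND1 knockdown against NT4, 2 to 5 in CDK4 knockdown against NT3, 0 to 2 in dual against CDK6 knockdown and 1 to 4 in CCND1 against CDK6 knockdown. The uncalled differences that changed sign were CXCL14 in NT4 against NT3 (-0.01 to 0.44), CXCL12 (-0.24 to 0.02) and CXCL16 (-0.10 to 0.19) in CCND1 knockdown against NT4, CXCL14 in CDK4 knockdown against NT3 (-0.75 to 0.63) and against NT4 (-1 to 0.38), and CXCL16 in CDK4 knockdown against NT4 (-0.28 to 0.28). The rest were CXCL12 in CDK6 knockdown against NT3 (-0.04 to 0.12), CXCL16 in CDK6 against CDK4 knockdown (-0.52 to 0.03), CXCL6 in CCND1 against CDK6 knockdown (-0.14 to 1.12), and in dual against CDK6 knockdown CXCL1 (-0.59 to 0.41), CXCL2 (-1.16 to 0.36), CXCL3 (-0.56 to 0.39) and CXCL8 (-0.68 to 0.06).

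Column names carry no replicate number, so the replicate block used runs of column numbers, an alternative chosen after seeing the data. Over all tested genes, deviations from the group means correlated from -0.11 to 0.1 in the 45 pairs of libraries of the same run and from -0.144 to 0.161 in the 90 pairs of different runs. The median was 0.037 for the same run and -0.016 for different runs. Some of the 9 genes did deviate by run: CXCL8 and CXCL1 were above their group mean in 5 of 6 groups in run 3 (by 0.417 and 0.439 on average), and CXCL5 in 0 of 6 in run 1. With the replicate block, fitted on the 18 irradiated libraries, 1 gene was called in CDK4 knockdown against NT4 (CXCL8, 0.80, limma adjusted p = 0.0295). The block also gave limma adjusted p-values of 0.0159 for CXCL8 in CDK4 knockdown against NT3, 0.037 for CXCL14 in CDK6 against CDK4 knockdown and 0.0119 for CXCL1 in CCND1 against CDK6 knockdown, and changed no other call.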
